A study of Mus musculus with 10 samples.

Results

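The injury regeneration genes of colon epithelium are genes known to be switched on when damaged colon epithelium repairs itself. The list names 9 genes, *Ly6a*, *Anxa1*, *Anxa3*, *Clu*, *Il33ra*, *Areg*, *Ereg*, *Ccn1* and *Ccn2*, which were looked up by symbol in a table of 56691 genes. A row was found for 8 of the 9, and all 8 were among the 16545 genes with enough counts to be tested. *Il33ra* is not used as a symbol in the table, and *Il1rl1*, the gene of the receptor chain for interleukin 33, is described beside the 8. RNA from the colon of 10 male C57/BL6 mice, 8 weeks old when obtained, was sequenced after poly(A) selection. All 10 mice drank 3% dextran sulfate sodium (DSS), a polysaccharide that injures the colon epithelium, for 7 days. The 5 mice of the DSS group were then given water by gavage, and the 5 mice of the ceAF group chick early amniotic fluid (ceAF) by gavage at 15 mL/kg for 10 days. The study's scheme places sampling of both groups on day 17. Undamaged mice were not analysed here, so each value compares ceAF with DSS and none compares with a healthy colon. Each library held 16275884 to 19901549 counted reads in the DSS group and 14676471 to 18811795 in the ceAF group. That each library came from a separate mouse rests on the labels.

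After injury, the surviving epithelium of the colon leaves its normal program for a time and takes on a wound program that resembles the fetal intestine. *Ly6a* encodes Sca-1, the surface protein most used to mark these cells, and *Clu*, *Anxa1* and *Anxa3* are among the genes that accompany it. The Hippo pathway acts upstream: when its kinases are idle, the coactivators YAP and TAZ bind TEAD factors in the nucleus, and *Ccn1*, *Ccn2* and *Areg* are among the classical genes they turn on. *Areg* and *Ereg* encode amphiregulin and epiregulin, ligands of the epidermal growth factor receptor (EGFR), which drives the proliferation that closes the wound. Interleukin 33 is released from damaged barrier tissue and acts on cells that carry its receptor. Several of these genes are also used by stromal, endothelial or immune cells.

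The library of ceAF-1 stood apart from the rest over all genes tested, and those of DSS-1 and DSS-5 did so less. On log2 CPM (counts scaled to a common library total) after scaling with trimmed means of M-values (TMM), principal component 1 held 30.8% of the variance and placed ceAF-1 at 93.5, with the other 9 mice between −45.5 (DSS-5) and 16.0. DSS-1 lay at one end of principal component 2, at 60.3, and DSS-5 at the other, at −45.8, and that component held 19.4%. The median r to the other mice was 0.935 for ceAF-1, 0.950 for DSS-1, 0.951 for DSS-5 and at least 0.955 for the others. The library of ceAF-1 also had the smallest total count, the lowest TMM factor (0.894) and the fewest genes detected (23334), and *mt-Co1* took 5.69% of its counts against 2.56% to 4.95% in the others. Whether the library or the tissue of this mouse differed was not tested. Among the 8 genes, ceAF-1 was the lowest of the 10 mice in 5 and below the mean of all mice in 8, whereas DSS-1 was the highest in 4 and below the mean in 0. The 8 genes are therefore given per mouse, and many of the comparisons are also given without these mice. Leaving out both ceAF-1 and DSS-1 was chosen after seeing the values of the 8 genes, in which they are often the extremes, so it raises the ceAF group by construction and is a description only. DSS-5 was left out only on its own, as each mouse was. In whole colon, fewer cells of a type and less RNA per cell cannot be told apart.

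No injury regeneration gene passed the test between the groups. In edgeR's quasi-likelihood test (Benjamini-Hochberg), 0 of the 8 had an adjusted p under 0.05, against 0% of the 16545 genes tested, and the smallest adjusted p over all genes was 0.656. At an unadjusted p under 0.05, 0 of the 8 passed, against 1146 genes or 6.93% of all. The groups did not overlap in 0 of the 8, against 205 genes or 1.24% of all. With DESeq2 26 genes of the table passed at an adjusted p under 0.05, and with limma on FPKM (counts relative to exonic length and library total) 1 gene did, but in both tools this count was 0 for the 8. Of the 8, 3 had a higher fitted level in the ceAF group (*Anxa1*, *Anxa3* and *Clu*) and 5 a lower one, at a median log2 change of −0.13 beside 0.01 over all genes. Without ceAF-1 the median of the 8 was 0.11, and 2 of them, *Anxa1* and *Anxa3*, were higher at an unadjusted p under 0.05. In that fit 5.21% of all genes were higher at this limit. ceAF-1 is itself the lowest mouse in 5 of the 8, so leaving it out raises their fold changes. At an adjusted p under 0.05, 0 of the 8 passed without ceAF-1. The median of the 8 was −0.15 without DSS-5, and 0.24 without DSS-1 and ceAF-1. Over the fits that left out 1 mouse, that median ranged from −0.29 (without ceAF-2) to 0.11 (without ceAF-1). The number of all genes at an unadjusted p under 0.05 was 712 without DSS-1 and 1872 without ceAF-1, and without DSS-5 3 genes passed at an adjusted p under 0.05, which were 0 of the 8.

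**Figure D1:**
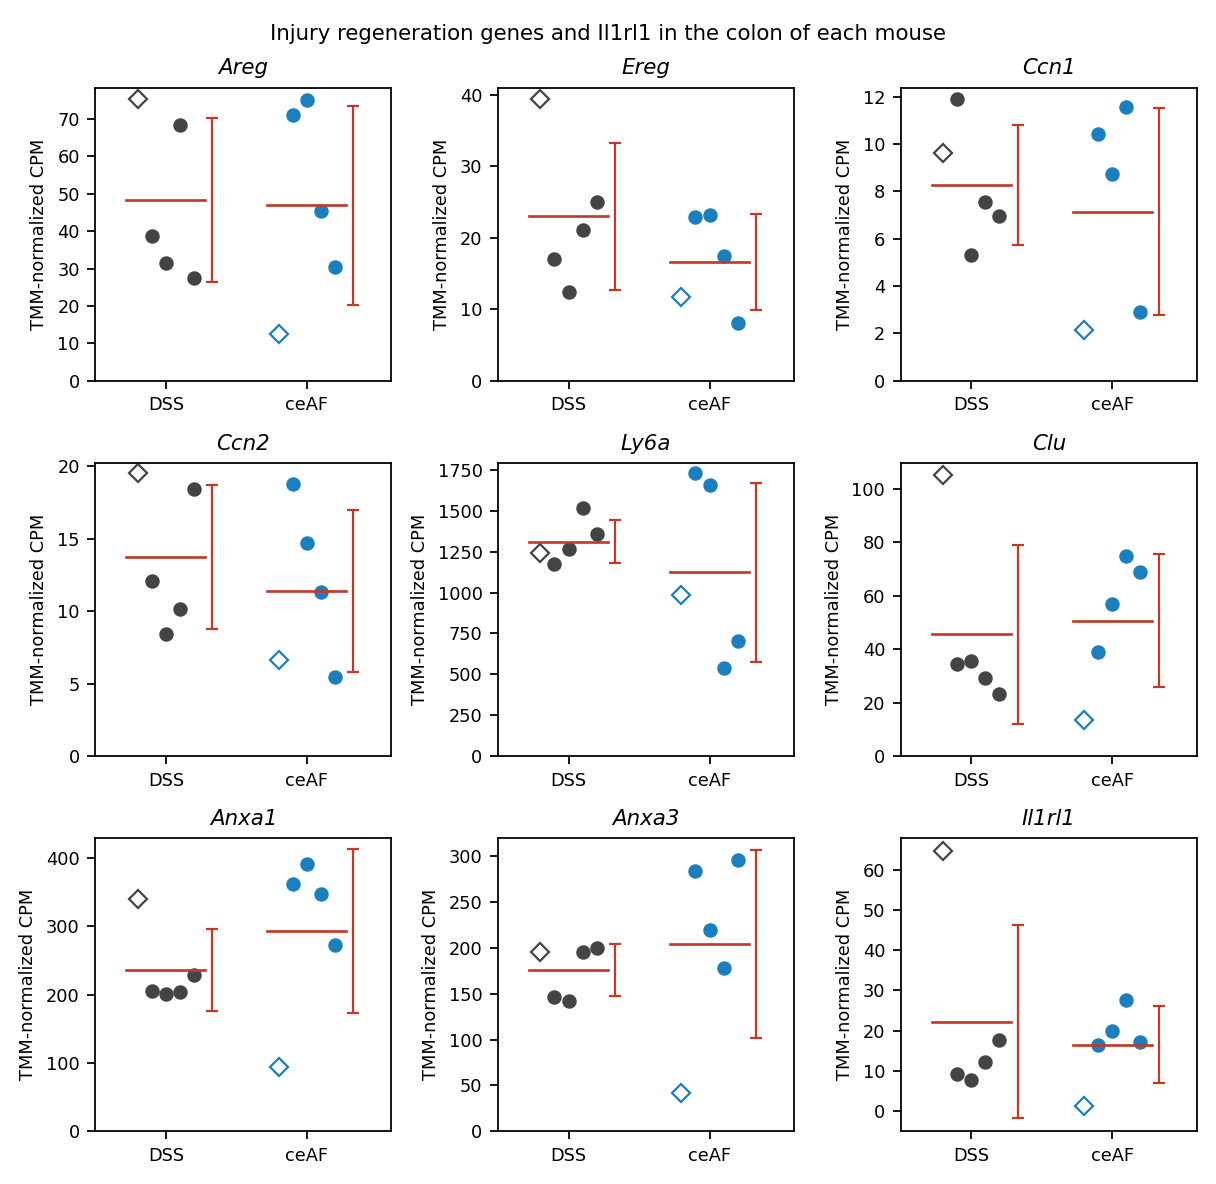
TMM-normalized CPM of the 8 injury regeneration genes and *Il1rl1* in each mouse of the DSS group (gray) and the ceAF group (blue), with open diamonds for DSS-1 and ceAF-1, red lines for group means and red bars for the standard deviation (n = 5 mice each). The groups overlap in all 9 panels, and ceAF-1 is the lowest of the 10 mice in *Areg*, *Ccn1*, *Clu*, *Anxa1*, *Anxa3* and *Il1rl1*.

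Among the ligands, *Areg* (ENSMUSG00000029378, chr5:91287458-91296291, forward strand) and *Ereg* (ENSMUSG00000029377, chr5:91222481-91241505, forward strand) lie 45952 bases apart on the same strand, in positions given as deposited, whose genome build was not named. *Areg* measured 75.2, 38.8, 31.5, 68.5 and 27.5 CPM in DSS-1 to DSS-5, and 12.6, 71.1, 74.9, 45.3 and 30.5 CPM in ceAF-1 to ceAF-5. The values of the groups overlapped, with ceAF-1 lowest, below every DSS mouse, and DSS-1 and ceAF-3 highest. The means were 48.3 ± 22.0 CPM for DSS and 46.9 ± 26.5 for ceAF (± SD, n = 5 mice per group), and the log2 fold change was −0.04, with standard error 0.447 and a 95% confidence interval of −1.03 to 0.94. Its adjusted p was 0.993 in edgeR's quasi-likelihood test (Benjamini-Hochberg). The direction turned without DSS-1 (0.18), DSS-4 (0.12), ceAF-1 (0.20) or ceAF-5 (0.0802), and without DSS-1 and ceAF-1 it was 0.41. *Ereg* measured 39.4, 17.1, 12.5, 21.1 and 25.0 CPM in DSS-1 to DSS-5, and 11.7, 22.9, 23.2, 17.4 and 8.03 CPM in ceAF-1 to ceAF-5. *Ereg* was highest in DSS-1 and lowest in ceAF-5, and 3 of the ceAF mice lay within the range of DSS-2 to DSS-5. The means were 23.0 ± 10.3 CPM for DSS and 16.6 ± 6.74 for ceAF (± SD, n = 5 mice per group). Its log2 fold change of −0.47 (standard error 0.349) was the lowest of the 8 genes, with an adjusted p of 0.834 in edgeR's quasi-likelihood test (Benjamini-Hochberg) and an exact two-sided permutation p of 0.294. Without DSS-1 it was −0.18, and without DSS-1 and ceAF-1 −0.09. An antisense gene, *Gm19610*, overlaps *Ereg* with 1 to 21 counts per mouse beside at least 146 for *Ereg*, and since the counting was not stated to use strand, reads of the pair cannot be told apart.

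Per length of exon, *Areg* exceeded *Ereg* in every mouse. The ratio of their FPKM was 6.48, 7.71, 8.60, 11.0 and 3.74 in DSS-1 to DSS-5, and 3.66, 10.5, 11.0, 8.85 and 12.9 in ceAF-1 to ceAF-5. It was lowest in ceAF-1 and DSS-5 and highest in ceAF-5, and the groups overlapped. On TMM-normalized CPM the log2 ratio of *Areg* to *Ereg* was 1.06 ± 0.585 for DSS and 1.35 ± 0.719 for ceAF (± SD, n = 5 mice per group), a difference of 0.29 with an exact two-sided permutation p of 0.5 and 0.738 after Benjamini-Hochberg adjustment over the 3 ratios compared. Without ceAF-1 the difference was 0.60 (exact permutation p 0.0873), without DSS-1 and ceAF-1 0.57, and without DSS-5 0.0593.

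The EGFR list holds the other ligands of the family, the receptors and their feedback inhibitors. Of its 13 genes, 12 were tested, 8 higher and 4 lower with ceAF, and 0 had an adjusted p under 0.05. Their median log2 fold change was 0.07 (0.16 without DSS-1 and ceAF-1). With 1 mouse left out it ranged from 0.04 (without ceAF-3) to 0.15 (without ceAF-5). The 3 with the smallest unadjusted p were *Nrg4*, *Btc* and *Hbegf*, all ligands. *Nrg4*, which encodes a ligand of ERBB4, had a log2 fold change of 0.75 (standard error 0.311) and an adjusted p of 0.694 in edgeR's quasi-likelihood test (Benjamini-Hochberg). Its level was low, at a mean of 0.357 FPKM, with 13 counts in DSS-5, the fewest, and 70 in ceAF-5, the most. The receptor gene *Erbb4* had at most 1 count in a mouse. *Btc* (betacellulin) had 0.36 (standard error 0.332) and *Hbegf* −0.25 (standard error 0.236). The most abundant gene of the list per length was *Erbb3*, at a mean of 83.7 FPKM over the 10 mice.

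Among the YAP targets, *Ccn1* (ENSMUSG00000028195, chr3:145352731-145355736, reverse strand) and *Ccn2* (ENSMUSG00000019997, chr10:24471340-24474581, forward strand) encode secreted matricellular proteins, also known as Cyr61 and CTGF. *Ccn1* measured 9.62, 11.9, 5.33, 7.56 and 6.96 CPM in DSS-1 to DSS-5, and 2.14, 10.4, 8.72, 11.6 and 2.91 CPM in ceAF-1 to ceAF-5. In ceAF-1 and ceAF-5 *Ccn1* lay below every DSS mouse, and the other ceAF mice lay among the DSS mice. The means were 8.27 ± 2.54 CPM for DSS and 7.15 ± 4.35 for ceAF (± SD, n = 5 mice per group), and the log2 fold change of −0.21 (standard error 0.441) had an adjusted p of 0.959 in edgeR's quasi-likelihood test (Benjamini-Hochberg). *Ccn2* measured 19.5, 12.1, 8.44, 10.1 and 18.4 CPM in DSS-1 to DSS-5, and 6.64, 18.8, 14.7, 11.3 and 5.44 CPM in ceAF-1 to ceAF-5. The same 2 ceAF mice were lowest in *Ccn2*, and DSS-1 and ceAF-2 were highest. The means were 13.7 ± 4.98 CPM for DSS and 11.4 ± 5.57 for ceAF (± SD, n = 5 mice per group), with a log2 fold change of −0.27 (standard error 0.357) and an adjusted p of 0.920 in edgeR's quasi-likelihood test (Benjamini-Hochberg). Without DSS-1 and ceAF-1 the log2 fold changes were 0.07 for *Ccn1* and 0.03 for *Ccn2*. *Ccn1* had between 28 and 238 counts per mouse, the smallest minimum of the 8 genes. The antisense gene *Gm15270*, which overlaps *Ccn2*, had 0 to 7 counts.

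The log2 ratio of *Ccn1* to *Ccn2* was −0.71 ± 0.533 for DSS and −0.82 ± 0.592 for ceAF (± SD, n = 5 mice per group). The difference was −0.12, with an exact two-sided permutation p of 0.738 and 0.738 after adjustment over the 3 ratios. Its sign depended on single mice, since it was 0.0550 without DSS-2 and 0.0875 without ceAF-1. Of the other 4 genes of the CCN family, 2 were tested and both were lower in the ceAF group. *Ccn3*, whose product opposes several actions of CCN2, had a log2 fold change of −1.08 (standard error 0.460), an adjusted p of 0.704 in edgeR's quasi-likelihood test (Benjamini-Hochberg) and an exact two-sided permutation p of 0.0397. *Ccn3* measured 4.88 CPM in ceAF-1, and without DSS-1 and ceAF-1 its log2 fold change was −0.70. *Ccn4* had a log2 fold change of −0.64 (standard error 0.329), also short of the test.

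Other genes known as YAP targets did not pass the test either. Of 20 genes in that list, 19 were tested, 5 higher and 14 lower, at a median log2 change of −0.15, and 0 had an adjusted p under 0.05. Without DSS-1 and ceAF-1, 9 were higher and 10 lower, with a median of −0.03. The smallest unadjusted p belonged to *Tgfb2*, *Amotl2* and *Ccdc80*. *Tgfb2*, a ligand of the transforming growth factor family, had a log2 fold change of −0.77 (standard error 0.327), with 12.9 CPM in DSS-5 and at most 7.30 CPM in the other 9 mice. *Amotl2*, which binds YAP and is itself a target, had −0.33 (standard error 0.166), and *Ccdc80* −0.55 (standard error 0.368). Of the 15 genes of the Hippo pathway itself, 15 were tested, 7 higher and 8 lower, with a median of −0.01 and 0 past the test. Its 3 genes with the smallest unadjusted p were *Sav1*, the scaffold of the kinases, at 0.32 (standard error 0.121), *Wwtr1*, which encodes TAZ, at −0.38 (standard error 0.199), and the kinase gene *Lats1* at 0.12 (standard error 0.0966).

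**Figure D2:**
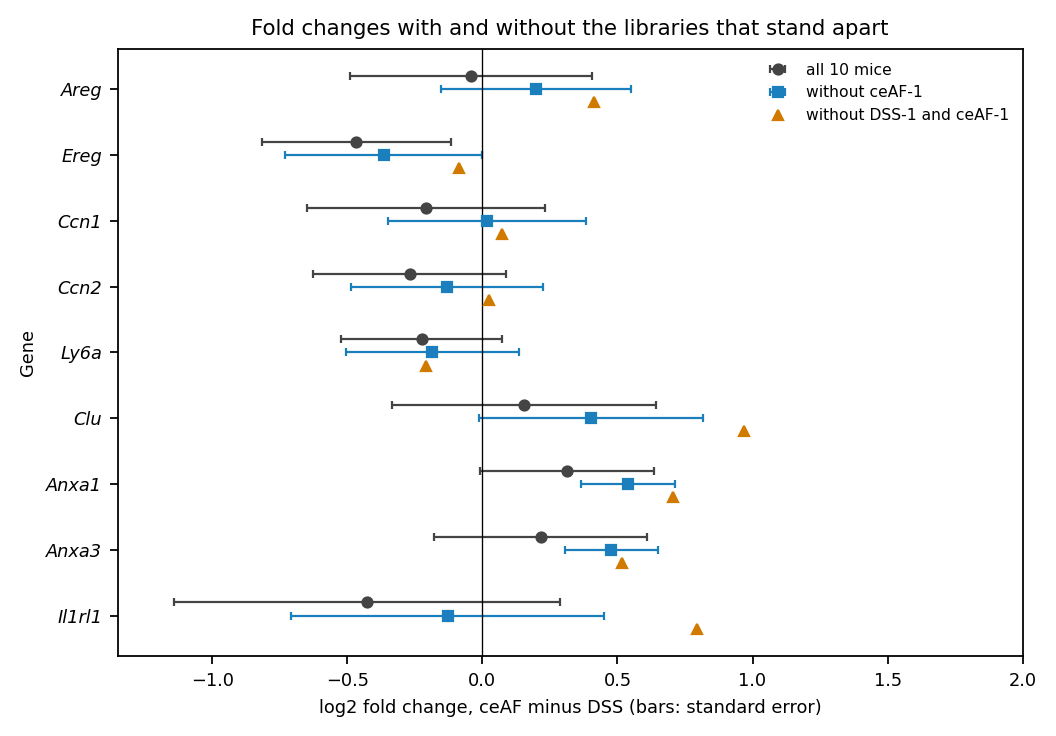
Log2 fold change (ceAF minus DSS, horizontal axis) of the 8 injury regeneration genes and *Il1rl1* with all 10 mice (circles), without ceAF-1 (squares) and without DSS-1 and ceAF-1 (triangles), with bars for 1 standard error in the first 2 fits. Without DSS-1 and ceAF-1 every gene lies to the right of its value with all mice, *Ly6a* by the least, which lies between −0.22 and −0.19 in these 3 fits.

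*Ly6a* (ENSMUSG00000075602, chr15:74866726-74869880, reverse strand), the surface marker of the wound program, was by far the most abundant of the 8 genes. *Ly6a* measured 1239.9, 1178, 1266, 1520.1 and 1356 CPM in DSS-1 to DSS-5, and 985, 1733, 1656, 538 and 702 CPM in ceAF-1 to ceAF-5. The DSS mice lay close together, whereas the ceAF mice fell on both sides of them: ceAF-2 and ceAF-3 lay above every DSS mouse, and ceAF-1, ceAF-4 and ceAF-5 below every DSS mouse. The means were 1312 ± 133 CPM for DSS and 1123 ± 547 for ceAF (± SD, n = 5 mice per group). The log2 fold change was −0.22, with standard error 0.299 and a 95% confidence interval of −0.88 to 0.43, an adjusted p of 0.920 in edgeR's quasi-likelihood test (Benjamini-Hochberg) and an exact two-sided permutation p of 0.333. Leaving out each mouse in turn, its log2 fold change ranged from −0.42 to −0.04, nearest to 0 without ceAF-4 and farthest without ceAF-2. Whether the spread itself differed between the groups was not tested. Per length *Ly6a* reached 1094 ± 82.0 FPKM for DSS and 913 ± 434 for ceAF (± SD, n = 5 mice per group).

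The genes of the Ly6 family encode small GPI-anchored surface proteins, and 7 of the 8 tested ones besides *Ly6a* lie on chromosome 15 with it. Of the 9 in the list, 2 were higher and 6 lower with ceAF, at a median log2 change of −0.24 and 0 past the test, and *Ly6k* had too few counts. That median was −0.06 without DSS-1 and 0.02 without DSS-1 and ceAF-1, with 4 higher and 4 lower. The 3 with the smallest unadjusted p were *Ly6c1* at −0.65 (standard error 0.454), *Ly6g* at −0.67 (standard error 0.578) and *Gpihbp1* at −0.40 (standard error 0.355). *Ly6g*, known above all from neutrophils, averaged 198 FPKM and was highest in DSS-5 at 482 CPM, while the summed neutrophil markers were 69.2 CPM in that mouse and 1561 CPM in DSS-1. The most abundant gene of the family was *Lypd8*, which encodes a secreted protein that keeps bacteria from the colon epithelium, at a mean of 11677 FPKM. It was lowest in ceAF-4 (10771 CPM) and ceAF-5 (11229 CPM), the same 2 mice in which *Ly6a* was lowest, and at least 14201 CPM in the others.

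The genes with higher fitted levels in the ceAF group were the 3 genes *Anxa1*, *Anxa3* and *Clu*. Their fold changes were larger when ceAF-1 and DSS-1 were left out, but this did not set them apart. Every injury regeneration gene moved up in that fit, *Areg* from −0.04 to 0.41. Those mice were chosen after seeing that they are often the extremes of these genes, so the rise follows in part from the choice. *Anxa1* (ENSMUSG00000024659, chr19:20350792-20368308, reverse strand) encodes annexin A1, a calcium-dependent phospholipid-binding protein that dampens inflammation and promotes epithelial repair through formyl peptide receptors. *Anxa1* measured 340.3, 205, 201, 204 and 229 CPM in DSS-1 to DSS-5, and 93.6, 362, 390.3, 348 and 273 CPM in ceAF-1 to ceAF-5. DSS-2 to DSS-5 lay between 201 and 229 CPM and ceAF-2 to ceAF-5 between 273 and 390.3, while DSS-1 lay among the latter and ceAF-1 below all other mice. The separation of the mice other than DSS-1 and ceAF-1 is a description only. The means were 236 ± 59.4 CPM for DSS and 293 ± 119.7 for ceAF (± SD, n = 5 mice per group), and the log2 fold change was 0.31, with standard error 0.323 and a 95% confidence interval of −0.40 to 1.02. Its adjusted p was 0.892 in edgeR's quasi-likelihood test (Benjamini-Hochberg), and the exact two-sided permutation p was 0.722. Without ceAF-1 the log2 fold change was 0.54 (standard error 0.175, adjusted p 0.387 in the same edgeR quasi-likelihood test with Benjamini-Hochberg adjustment), and without DSS-1 and ceAF-1 it was 0.71. Over all alternatives the adjusted p of *Anxa1* in edgeR, DESeq2 or limma with Benjamini-Hochberg adjustment ranged from 0.387 to 1.00.

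*Anxa3* (ENSMUSG00000029484, chr5:96941198-96993825, forward strand), a second annexin gene, belongs to the wound program by its expression, and less is known of what its product does there. *Anxa3* measured 195, 146, 143, 195 and 199.6 CPM in DSS-1 to DSS-5, and 41.6, 284, 219, 179 and 296 CPM in ceAF-1 to ceAF-5. In ceAF-2, ceAF-3 and ceAF-5 *Anxa3* exceeded every DSS mouse, ceAF-4 lay among them, and ceAF-1 lay far below all. The means were 176 ± 28.7 CPM for DSS and 204 ± 103 for ceAF (± SD, n = 5 mice per group), with a log2 fold change of 0.22 (standard error 0.395) and an adjusted p of 0.951 in edgeR's quasi-likelihood test (Benjamini-Hochberg). On the mean of log2 CPM, where a low mouse weighs more, the difference was −0.04, with an exact two-sided permutation p of 0.976, and it was also below 0 with limma on FPKM. Without ceAF-1 the log2 fold change was 0.48 (standard error 0.174), with an unadjusted p of 0.0201 and an adjusted p of 0.400 in edgeR's quasi-likelihood test (Benjamini-Hochberg), the smallest of a range up to 1.00 over all alternatives. The log2 ratio of *Anxa1* to *Anxa3* was 0.41 ± 0.289 for DSS and 0.64 ± 0.520 for ceAF (± SD, n = 5 mice per group), a difference of 0.23 with an exact two-sided permutation p of 0.389 and 0.738 after adjustment over the 3 ratios. That difference was 0.0952 without ceAF-1, 0.19 without DSS-1 and ceAF-1, and 0.42 without ceAF-5 (exact permutation p 0.0952). Per length, *Anxa1* lay above *Anxa3* in each of the 10 mice.

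*Clu* (ENSMUSG00000022037, chr14:66205932-66218996, forward strand) encodes clusterin, a secreted chaperone, and marks the revival stem cells that rebuild crypts after damage. *Clu* measured 105, 34.6, 35.6, 29.2 and 23.3 CPM in DSS-1 to DSS-5, and 13.5, 39.0, 56.8, 74.9 and 69.1 CPM in ceAF-1 to ceAF-5. With all mice the groups overlapped, since DSS-1 was the highest of all mice and ceAF-1 the lowest. Between them every other ceAF mouse (39.0 to 74.9 CPM) lay above every other DSS mouse (23.3 to 35.6 CPM). DSS-1 and ceAF-1 were set aside after seeing that they are often the extremes of these genes. The separation of the remaining mice is therefore a description only, and how many of all genes separate in the same mice was not tested. The means were 45.6 ± 33.6 CPM for DSS and 50.7 ± 24.9 for ceAF (± SD, n = 5 mice per group), with a log2 fold change of 0.15 (standard error 0.490), an adjusted p of 0.975 in edgeR's quasi-likelihood test (Benjamini-Hochberg) and an exact two-sided permutation p of 0.786. Without DSS-1 the log2 fold change was 0.73 (standard error 0.401), without ceAF-1 0.40 (standard error 0.414), and without both 0.97. Without ceAF-4, by contrast, it was −0.00861.

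The markers of several other cell types moved with these 2 mice as well, while those of smooth muscle, T cells, enteric glia and neurons, and mast cells had other mice at 1 or both ends. The 8 fibroblast markers summed to 1129, 552, 547, 514 and 532 CPM in DSS-1 to DSS-5 and 188, 696, 668, 853 and 478 CPM in ceAF-1 to ceAF-5. They were thus lowest in ceAF-1 and highest in DSS-1, as *Clu* was. The 8 endothelial markers summed to 126, 73.3, 76.4, 86.7 and 68.7 CPM in DSS-1 to DSS-5 and 33.2, 56.4, 69.1, 124 and 57.2 CPM in ceAF-1 to ceAF-5, and the 8 macrophage markers to 189, 136, 146, 149.8 and 100.5 CPM in DSS-1 to DSS-5 and 45.3, 117, 139, 91.6 and 113 CPM in ceAF-1 to ceAF-5. Both lists were lowest in ceAF-1 and highest in DSS-1. The most abundant genes of these lists per length were *Col3a1* at 23.3 FPKM, *Pecam1* at 4.05 and *C1qa* at 27.6, and 0 of the 24 markers were at 0 in all mice. All 8 markers were lower in the ceAF group in each of the 3 lists, with median log2 fold changes of −0.29, −0.38 and −0.49, beside 8034 lower of all 16545 genes. In each list 0 markers had an adjusted p under 0.05, and 0, 1 and 2 had an unadjusted p under 0.05. Without DSS-1 and ceAF-1 these medians were 0.16, −0.02 and −0.26, with 3, 4 and 7 of the 8 markers lower. The part of these cells in the levels of *Clu*, *Anxa1* and *Anxa3* was not tested.

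Of the 12 genes of the annexin list, which also holds the formyl peptide receptors, 10 were tested, 6 higher and 4 lower with ceAF, at a median log2 change of 0.07 (0.12 without DSS-1 and ceAF-1) and 0 past the test. The sign of that median depended on single mice, since it was 0.02 without DSS-5 and −0.02 without ceAF-4. *Anxa10* was at 0 counts in all mice, and too few mice had enough *Fpr1* counts for a test. The smallest unadjusted p belonged to *Anxa6*, *Fpr2* and *Anxa4*. *Anxa6* had a log2 fold change of −0.58 (standard error 0.186), an adjusted p of 0.656 in edgeR's quasi-likelihood test (Benjamini-Hochberg) and an exact two-sided permutation p of 0.0317, and without DSS-1 and ceAF-1 it was −0.40. *Fpr2*, a receptor for annexin A1 that neutrophils and macrophages carry, measured 27.7 CPM in DSS-1 and at most 4.97 in the other mice, and its log2 fold change went from −2.55 (standard error 0.911) to −0.94 without DSS-1. *Anxa4* had 0.22 (standard error 0.155).

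Other genes of epithelial repair were read from a list of 18, of which 17 were tested, 4 higher and 13 lower with ceAF, at a median log2 change of −0.29 and 0 past the test. The smallest unadjusted p belonged to *Spp1*, *Ptgs2* and *Il33*, and the fold change of each was nearer to 0 without DSS-1. *Ptgs2*, which encodes the cyclooxygenase of inflammatory prostaglandin synthesis, measured 180.4 CPM in DSS-1 and 1.45 to 19.5 in the others, and its log2 fold change of −2.34 (standard error 0.922) was −0.56 without DSS-1. *Spp1* (osteopontin) went from −2.46 (standard error 0.897) to −0.85. The median of the list without DSS-1 was 0.01. Genes of the normal crypt stem cell, which the wound program replaces, were tested in 9 of 10 cases, 6 higher and 3 lower, with a median of 0.29 and 0 past the test. That median was 0.18 without DSS-1 and 0.14 without DSS-5. The smallest unadjusted p belonged to *Axin2*, *Rnf43* and *Ascl2*, with log2 fold changes of 0.64 (standard error 0.287), 0.35 (standard error 0.189) and 0.49 (standard error 0.343). *Olfm4* had too few counts to be tested.

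*Il1rl1* (ENSMUSG00000026069, chr1:40468730-40504575, forward strand) encodes ST2, the receptor chain for interleukin 33, both as a membrane receptor and as a secreted decoy, and counts per gene do not separate these forms. *Il1rl1* measured 64.5, 9.19, 7.66, 12.2 and 17.8 CPM in DSS-1 to DSS-5, and 1.30, 16.5, 19.9, 27.6 and 17.3 CPM in ceAF-1 to ceAF-5. DSS-1 was by far the highest and ceAF-1 by far the lowest, with the other mice of both groups between 7.66 and 27.6 CPM. The log2 fold change was −0.43, with standard error 0.715, an adjusted p of 0.945 in edgeR's quasi-likelihood test (Benjamini-Hochberg) and an exact two-sided permutation p of 0.675. Its direction turned without DSS-1, to 0.50 (standard error 0.597), and without DSS-1 and ceAF-1 it was 0.79. *Il33*, the gene of the cytokine, measured 16.9, 2.05, 7.06, 3.27 and 5.64 CPM in DSS-1 to DSS-5, and 1.22, 2.99, 3.89, 4.71 and 1.59 CPM in ceAF-1 to ceAF-5. It was lowest in ceAF-1 and highest in DSS-1, as *Il1rl1* was, with a log2 fold change of −1.27 (standard error 0.562) that became −0.63 without DSS-1. Of the 10 genes of the interleukin 33 list, 7 were tested, 2 higher and 5 lower, with a median of −0.16 (0.26 without DSS-1) and 0 past the test. Besides *Il33*, the smallest unadjusted p belonged to *Il17rb*, a receptor chain for interleukin 25, at 0.69 (standard error 0.339), and *Il4* at 0.49 (standard error 0.328). *Il13* was at 0 counts in all mice, and *Il5* and *Il25* had at most 6 and 3 counts in a mouse. The mast cell markers, a cell type that carries ST2, were tested in 3 of 8 cases and summed to 49.3, 54.5, 46.3, 47.8 and 31.3 CPM in DSS-1 to DSS-5 and 41.6, 32.5, 38.5, 50.3 and 36.7 CPM in ceAF-1 to ceAF-5, with *Kit*, which other cells of the gut also express, the most abundant at 4.13 FPKM. Their part in the level of *Il1rl1* was not tested.

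Levels of different genes were compared per length, on the FPKM scale, over all 10 mice. *Ly6a* averaged 1004 ± 309 FPKM (SD, n = 10 mice). It was followed by *Anxa1* at 91.5 ± 33.4, *Anxa3* at 52.6 ± 20.8, *Areg* at 39.2 ± 18.6 and *Clu* at 14.2 ± 8.69. *Ereg* at 4.81 ± 2.24, *Ccn2* at 4.40 ± 1.84 and *Ccn1* at 3.84 ± 1.73 formed the lower end, and differences between their levels were not tested. *Ly6a* lay above *Anxa1*, *Anxa1* above *Anxa3*, *Areg* above *Clu* and *Clu* above *Ereg* in 10 of 10 mice. *Anxa3* lay above *Areg*, *Ereg* above *Ccn2* and *Ccn2* above *Ccn1* in 7 of 10 mice each.

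Across the 10 mice, 6 of the 28 pairs of the 8 genes had an adjusted p under 0.05 for Pearson's r of log2 CPM and 1 for Spearman's rho, in permutation tests with Benjamini-Hochberg adjustment over the 28. The r of 27 pairs was above 0, with a median of 0.55, and without DSS-1 and ceAF-1 that of 20 pairs was. Over all pairs of 15231 genes with a mean of at least 1 CPM, r was above 0 in 49.7%, with a median of −0.00355, and 1.77% of them reached the lowest r of those 6 pairs, 0.77. The closest pair joined a growth factor with a YAP target: *Ereg* and *Ccn2* had r = 0.93 over 10 mice, with a permutation p of 7e-05 and 0.00196 after adjustment over the 28 pairs, and Spearman's rho was 0.92 with a permutation p of 0.000680 and 0.0190 after adjustment. Without DSS-1 and ceAF-5, the 2 mice farthest from the median of *Ereg*, r was 0.90. It was 0.93 for deviations from the group means and 0.93 without DSS-1 and ceAF-1. This pair alone stayed under an adjusted p of 0.05 in 10 of 10 fits that left out a mouse, where its r lay between 0.89 and 0.95. Of the same 15231 genes, 5 were closer to *Ereg* than *Ccn2* was, and 1 closer to *Ccn2* than *Ereg*.

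**Figure D3:**
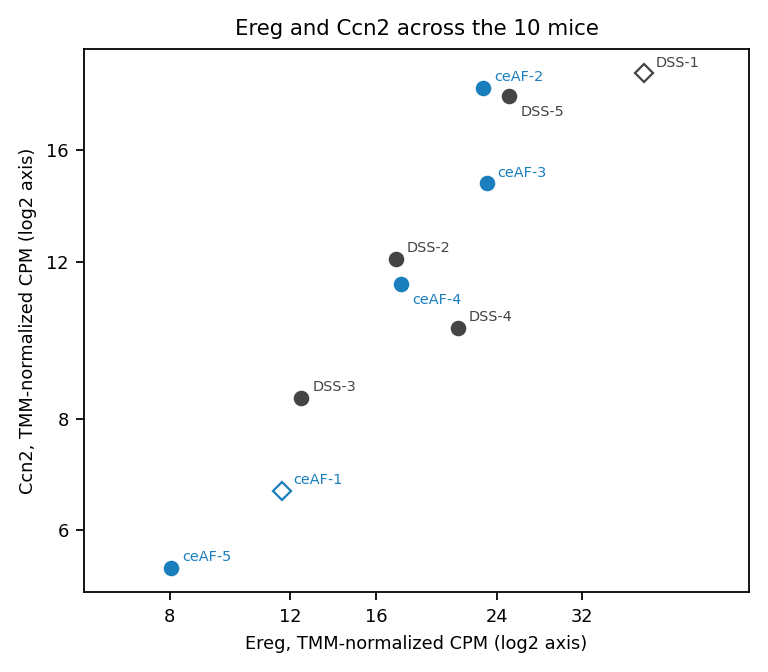
TMM-normalized CPM of *Ereg* (horizontal, log2 axis) and *Ccn2* (vertical, log2 axis) in each of the 10 mice, with the DSS group in gray, the ceAF group in blue and open diamonds for DSS-1 and ceAF-1. Both groups lie along the same line (r = 0.93), from ceAF-5 at the lower end to DSS-1 at the upper end.

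The other 5 pairs past the limit were *Anxa1* with *Anxa3* (r = 0.86), with *Clu* (0.82) and with *Areg* (0.82), *Ccn1* with *Ccn2* (0.77) and *Areg* with *Ccn1* (0.77). Their permutation p lay between 0.00316 and 0.00850 and was 0.0397 after adjustment for each. Their rho lay between 0.62 and 0.72, with a permutation p of 0.0239 to 0.0616, or 0.192 after adjustment for each. Without the 2 mice farthest from the median of the first gene, r was 0.54, 0.70, 0.48, 0.35 and 0.51 in the same order, so these relations rest in part on those mice, among which ceAF-1 was always counted. The median r of the 28 pairs was 0.34 without ceAF-1 and 0.30 without DSS-1 and ceAF-1. With all mice, the r of *Ly6a* was −0.28 with *Clu* (permutation p 0.425, adjusted 0.529), 0.07 with *Anxa1*, 0.14 with *Anxa3* and 0.41 with *Areg*. Without ceAF-4 and ceAF-5, the 2 mice farthest from the median of *Ly6a*, these were 0.39, 0.79, 0.86 and 0.79. Without ceAF-1 the r of *Ly6a* was −0.49 with *Clu* and −0.0788 with *Anxa1*, and without DSS-1 and ceAF-1 −0.67 and −0.0995, so these relations depend on which mice are counted.

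The genes whose log2 CPM over the 10 mice was most like each injury regeneration gene were sought among 15230 others with a symbol and a mean of at least 1 CPM, and the 3 with the highest r are named, as a description. For *Ly6a* these were *4930599N23Rik* (0.93), *Ccser1* (0.93) and *Plac8* (0.93), of which *Plac8* encodes a small cysteine-rich protein. For *Anxa1* they were *Capn2* (0.98), *Ltbp4* (0.98) and *Myof* (0.97), and *Myof* (myoferlin) is itself in the list of YAP targets. *Clu* was followed most closely by *Nav1* (0.96), *Scube1* (0.95) and *Ptk7* (0.94), where *Ptk7* encodes a receptor of Wnt signaling. The closest to *Anxa3* were *5830428M24Rik* (0.98), *Mcm3* (0.98) and *Tmprss2* (0.97), among them a subunit gene of the replicative helicase (*Mcm3*) and a transmembrane protease of epithelia (*Tmprss2*). *Areg* had *Tmbim1* (0.97), *Fes* (0.94) and *Clic1* (0.94), and *Ereg* had *Tnfrsf1a* (0.96), *Tmem104* (0.96) and *Rap1b* (0.96), where *Tnfrsf1a* encodes a receptor of tumor necrosis factor. For *Ccn2* they were *Litaf* (0.93), *Ereg* (0.93) and *Tnfrsf1a* (0.92), and for *Ccn1* *Apaf1* (0.94), *Cap1* (0.94) and *Col4a1* (0.91). *Il1rl1* had *Lmf2* (0.97), *Nrg1* (0.96) and *Il1rn* (0.96), which include the growth factor neuregulin 1 and the interleukin 1 receptor antagonist. Without the 2 mice farthest from the median of each gene, r of the genes named here lay between 0.60 and 0.97.

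RefSeq promoter sequences (GRCm38.p6, whose positions differ from those deposited) were matched for 3 of the 8 genes, *Areg*, *Ccn1* and *Anxa1*. They are shown because *Areg* was correlated with both other genes by r, and because TEAD factors and a cAMP response element are textbook features of such promoters. The 250 bases before the start of each gene were searched on both strands for the TEAD motif CATTCC, the cAMP response element TGACGTCA and the AP-1 motif TGANTCA, and matches are in capitals.
Areg (chr5:91139349-91139598, forward strand): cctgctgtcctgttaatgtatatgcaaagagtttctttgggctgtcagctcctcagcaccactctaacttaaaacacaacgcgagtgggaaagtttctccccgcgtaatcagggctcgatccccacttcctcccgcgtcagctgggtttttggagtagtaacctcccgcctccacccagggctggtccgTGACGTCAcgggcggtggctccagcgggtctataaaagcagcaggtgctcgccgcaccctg
Ccn1 (chr3:145649986-145650235, reverse strand): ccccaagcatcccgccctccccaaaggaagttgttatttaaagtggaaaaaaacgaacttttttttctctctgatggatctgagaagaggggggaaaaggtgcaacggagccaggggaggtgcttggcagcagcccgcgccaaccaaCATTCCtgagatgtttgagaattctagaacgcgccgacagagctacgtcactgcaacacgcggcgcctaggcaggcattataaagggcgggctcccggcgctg
Anxa1 (chr19:20390672-20390921, reverse strand): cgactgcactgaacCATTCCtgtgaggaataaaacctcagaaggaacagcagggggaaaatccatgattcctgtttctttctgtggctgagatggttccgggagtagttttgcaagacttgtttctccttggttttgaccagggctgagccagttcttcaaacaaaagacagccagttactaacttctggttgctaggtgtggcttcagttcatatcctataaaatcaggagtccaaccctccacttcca
The *Areg* promoter held no TEAD motif and 1 cAMP response element, which ended 53 bases before the start. Such an element was found in 1.55% of the 32851 promoters of the same length. The promoters of *Ccn1* and *Anxa1* each held 1 TEAD motif on the strand of the gene, ending 97 and 230 bases before the start, as did 12.6% of all promoters on either strand. The AP-1 letters were in none of the 3 windows and in 6.75% of all. A match of letters is not a site in use.

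The labelled tissue was checked against markers of its cell types. The 10 epithelial markers were all tested and summed to 15805, 20625, 23225, 23210.0 and 12277 CPM in DSS-1 to DSS-5 and 28667, 17736, 20079.9, 15258 and 15154 CPM in ceAF-1 to ceAF-5, with 5 higher and 5 lower with ceAF, a median of 0.00 and 0 past the test. The most abundant was *Car1*, a carbonic anhydrase of colon surface cells, with 11922 CPM in ceAF-1 and 115 in DSS-5, a wider range than that of any injury regeneration gene. In ceAF-1, high *Car1* stood beside the lowest *Clu*, *Anxa1*, *Anxa3*, *Areg* and *Ccn1*. The reverse was not seen in DSS-5, where *Clu* (23.3 CPM) and *Areg* (27.5 CPM) were the lowest of the DSS group. DSS-5 was the highest of the 10 mice in 0 of the 8 genes and below the mean in 3. A relation of *Car1* to these genes was not tested. Of the immune markers, 8 of 8 T cell genes were lower with ceAF at a median of −1.23 (−1.10 without DSS-1), 6 of 6 tested neutrophil genes with −3.96 (−1.52 without DSS-1), and 8 of 8 B cell genes with −0.71 (0.48 without DSS-1), again with 0 past the test in any list. At an unadjusted p under 0.05, 7 of the 8 T cell genes were lower and 5 of the 6 neutrophil genes, against 3.67% of all genes lower at this limit. Without DSS-1 these were 6 of the 8 and 1 of the 6, against 1.92% of all genes. Their most abundant genes were *Trbc2* at 16.7 FPKM, *S100a9* at 165 and *Cd79a* at 9.26. The neutrophil markers summed to 1561, 15.9, 172, 18.9 and 69.2 CPM in DSS-1 to DSS-5 and 2.14, 13.5, 14.6, 44.2 and 19.8 CPM in ceAF-1 to ceAF-5. DSS-1 stood far above all other mice there, as it was also the highest in *Clu*, *Areg*, *Ereg*, *Ccn2* and *Il1rl1*. The medians were −0.14 for 8 smooth muscle genes, −0.23 for 8 genes of enteric glia and neurons, −0.21 for 3 mast cell genes and −0.30 for 5 genes of the follicle-associated epithelium, led per length by *Actg2*, *Ret*, *Kit* and *Marcksl1*. Leaving out each mouse in turn, they ranged from −0.35 to −0.01, from −0.52 to 0.09, from −0.71 to −0.05 and from −0.64 to 0.06 in this order. Without DSS-1, 2 of the 4 medians were above 0. The mast cell range is for the 3 genes tested with all mice. In the fit without ceAF-1, 4 mast cell genes were tested, and their median was 0.09. The part of these cells in the levels of the injury regeneration genes was not tested.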

How the data were processed

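Colon RNA of 10 mice was grouped by the sample labels. The authors deposited whole-number counts of reads per gene and the FPKM computed from them; the submitters' processing notes name cutadapt 1.9.1 and HISAT2 2.2.1, and the counting program, genome build and strandedness were not given in the sources used here. Counts were analysed with edgeR 4.0.16 in R 4.3.3: filterByExpr (minimum count 10), TMM scaling and the two-sided quasi-likelihood test, adjusted by Benjamini-Hochberg over 16545 genes, after a test on simulated data. The standard error of an edgeR fold change was its absolute log2 value divided by the square root of the F statistic of that test. Confidence intervals were built from that standard error and the t distribution. Log2 CPM used a prior count of 1. Exact permutation tests used all assignments of the mice compared to the 2 groups, 252 with all 10 mice, and correlations 100000 permutations. Alternatives used DESeq2 1.42.0, limma 3.58.1, other scalings and filters, robust dispersion, a block by replicate number and leaving out mice. In each pathway list the 3 genes of smallest unadjusted p are named, in each marker list the most abundant, and for each member the 3 most correlated genes. Members and lists were chosen with earlier results of these data known. Plots came from matplotlib 3.10.9 (Python 3.11.15).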

Additional observations from a re-analysis of the deposited data

Results flagged for a closer look

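For every set of 5 mice, the distance from the farthest mouse to the next was expressed as a share of the set's range, using the log2 CPM of the 8 injury regeneration genes and *Il1rl1* and for the total count. Of 20 such groups, 6 exceeded 0.71, the critical value of Dixon's test at this size, and chance alone flags about 1 in 20. They are not independent, since 5 of the 6 concern DSS-1 or ceAF-1. ceAF-1 was far below the other ceAF mice in *Il1rl1* (share 0.830), *Anxa1* (0.749) and *Anxa3* (0.742). DSS-1 was far above the other DSS mice in *Anxa1* (0.754) and *Clu* (0.721). The total count of DSS-2, at 19901549, was far above those of the other DSS mice (0.908), and DSS-2 was extreme in 0 of the 8 genes within the DSS group by this measure.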

How the results depend on the processing

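The 8 genes had an adjusted p above 0.05 under all 20 alternatives, and *Anxa1*, *Ereg* and *Ly6a* kept their direction in each. The direction of the others turned in some, and the cause was not tested. With limma on log2(FPKM + 1), log2(FPKM + 0.1) and log2(FPKM + 1) without a filter, the log2 fold change of *Anxa3* was −0.0528, −0.0658 and −0.0528. Leaving out each mouse in turn, it ranged from −0.26 to 0.20 for *Areg*, from −0.44 to 0.0181 for *Ccn1*, from −0.00861 to 0.73 for *Clu* and from −0.67 to 0.50 for *Il1rl1*. For the genes that kept their direction in those fits it ranged from 0.20 to 0.54 for *Anxa1*, from 0.0425 to 0.48 for *Anxa3*, from −0.61 to −0.18 for *Ereg*, from −0.51 to −0.0904 for *Ccn2* and from −0.42 to −0.0402 for *Ly6a*. Without DSS-1 and ceAF-1, chosen after seeing that they are often the extremes of these genes, which raises the ceAF group by construction, it was 0.41 for *Areg*, 0.0742 for *Ccn1*, 0.0262 for *Ccn2* and 0.79 for *Il1rl1*, and the log2 ratio of *Ccn1* to *Ccn2* differed by 0.00889. In that fit 3 genes of the 8 were at an unadjusted p under 0.05 and 6 were higher in the ceAF group, beside 1449 and 8302 of all 16546 genes, and since the mice were chosen by these genes, both counts follow in part from the choice and test nothing. Leaving out each mouse, the ratio of *Ccn1* to *Ccn2* differed by −0.33 to 0.0875, that of *Areg* to *Ereg* by 0.0593 to 0.60 and that of *Anxa1* to *Anxa3* by 0.0952 to 0.42, the genes of the 8 at an unadjusted p under 0.05 numbered 0 to 2, and 2 to 5 of the 8 were higher in the ceAF group.

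Of all genes, DESeq2 called 26 at an adjusted p under 0.05, limma on log2(FPKM + 1) 1, on log2(FPKM + 0.1) 3 and on log2(FPKM + 1) without a filter 1, against 0 in edgeR's quasi-likelihood test. Leaving out each mouse gave 0 to 3 at that limit and 712 to 1872 at an unadjusted p under 0.05, and no filter on low counts gave 1733. The fit with the replicate number as a block gave 694 genes at an unadjusted p under 0.05 and 0 at an adjusted p under 0.05. In that fit the log2 fold change of *Il1rl1* was 0.0928. Mice of the same number correlated in their deviations from the group means at −0.25 to 0.29. Only DSS-5 was closest to the ceAF mouse of its own number. Such correlations alone cannot decide whether the numbers pair the mice. Of the 28 pairs of genes, 1 to 8 had an adjusted p under 0.05 when each mouse was left out, against 6. The median log2 fold change of the neutrophil markers ranged from −4.32 to −1.52 when each mouse was left out.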
